A study of Mus musculus with 6 samples.

Results

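Lysosomal enzymes, lysosomal membrane proteins and subunits of the vacuolar proton pump (V-ATPase) were examined in WT mouse embryonic fibroblasts (MEFs) treated with modulators of mitochondrial fusion. The genes were all those whose symbol starts with Atp6v0 or Atp6v1, with Atp6ap1 and Atp6ap2, and 27 further lysosomal genes given by name. Of the 54 genes, 46 had at least 10 counts in each of the 6 libraries and are described here, out of 12931 genes with that depth among the 55291 listed. They comprised 19 V-ATPase genes (9 of V1, 8 of V0 and 2 accessory), 14 hydrolases, 3 luminal cofactors, 6 membrane proteins and 4 regulators. The other 8 were all matched by a V-ATPase symbol and are given at the end. RNA-seq had been performed on 2 libraries each from MEFs given vehicle, MASM7 (1 μM, 6 h) or MFI8 (20 μM, 6 h), and the series describes the replicates of a treatment as independent. MASM7 is an activator and MFI8 an inhibitor of the mitofusins, the GTPases that fuse mitochondrial outer membranes. All 3 groups carried the same WT genotype, and no duration is given for vehicle. Doses and durations are those of the study's legend for these data. Since the doses of the compounds differ, compound and concentration cannot be told apart.

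Lysosomes break down proteins, lipids, glycans and organelles with hydrolases that work at acidic pH. The acidity comes from the V-ATPase, in which the cytosolic V1 sector hydrolyses ATP and the membrane-embedded V0 sector moves protons into the lumen. Many lysosomal genes are targets of the transcription factors TFEB and TFE3, which bind an E-box, CACGTG, often as the longer TCACGTGA of the CLEAR element, and which are held in the cytoplasm when mTORC1 is active on the lysosomal surface.

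Promoters of 4 genes are shown because they carry this motif and because the genes differ in what was measured: Mcoln1 and Atp6v0b had the smallest p with MFI8, Lamp1 had the highest transcript level, and Atp6v1a was lower with both compounds. Each sequence is from RefSeq on GRCm38.p6 and runs 5′ to 3′ on the gene's strand, with 140 bases before the start site and 10 from it. They lie at chr8:3500379-3500528 (plus strand, Mcoln1), chr4:117887320-117887469 (minus strand, Atp6v0b), chr8:13159021-13159170 (plus strand, Lamp1) and chr16:44139250-44139399 (minus strand, Atp6v1a). Capitals mark CACGTG, which reads the same on both strands.
Mcoln1: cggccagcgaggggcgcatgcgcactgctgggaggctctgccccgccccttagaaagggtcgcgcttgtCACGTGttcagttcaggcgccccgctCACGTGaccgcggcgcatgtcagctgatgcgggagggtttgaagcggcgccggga
Atp6v0b: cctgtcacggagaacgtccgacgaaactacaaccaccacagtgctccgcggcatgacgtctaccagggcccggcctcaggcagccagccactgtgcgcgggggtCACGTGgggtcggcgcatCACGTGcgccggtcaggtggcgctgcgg
Lamp1: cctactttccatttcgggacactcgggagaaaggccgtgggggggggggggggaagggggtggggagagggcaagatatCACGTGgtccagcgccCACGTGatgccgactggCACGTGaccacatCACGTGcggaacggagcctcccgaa
Atp6v1a: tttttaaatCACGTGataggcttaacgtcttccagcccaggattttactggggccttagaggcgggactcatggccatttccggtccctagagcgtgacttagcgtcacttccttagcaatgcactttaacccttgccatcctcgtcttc
The Mcoln1 promoter held the motif at positions -71 and -45 from the start site, the second within TCACGTGA. Atp6v0b held it at -36 and -18. Lamp1 held it at -61, -45, -28 and -15, and Atp6v1a once, at -131, within TCACGTGA.

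Among the 37 members with a promoter in the table, 13 (35.1%) held CACGTG between 250 bases before and 50 after a start site, compared with 11.8% of the 9816 tested genes with a promoter and 7.15% of all 32851 promoters. The 13 were 4 V-ATPase genes (Atp6v0b, Atp6v0d1, Atp6v0e and Atp6v1a), 7 hydrolases (Ctsa, Ctsd, Ctsl, Gaa, Gla, Glb1 and Naglu) and the membrane proteins Lamp1 and Mcoln1. The longer TCACGTGA, each copy of which contains a CACGTG, was present in 7 members (18.9%), against 2.23% of the tested genes and 0.974% of all promoters. A gene can have several promoters in the table, and a match describes letters in this window only.

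The libraries held 22791792 to 30677751 counts, and 14290 genes passed the filter on low counts and were tested. Fibroblast markers were abundant, with 8 of 9 at 1 or more TPM in every library and a summed level of 4070 to 5140 TPM. TPM is a level scaled to transcript length and to library size. Of 6 macrophage markers, 2 reached 1 TPM in every library, of which Cd14 was the highest at 29.6 TPM, and Adgre1 was at 0 in all libraries. The summed macrophage level was 33.6 to 35.4 TPM with vehicle, 35.5 to 37.4 with MASM7 and 31.1 to 33.6 with MFI8, and its part in the results was not tested. The osteoclast markers Acp5, Calcr and Ocstamp were at 0.

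Transcript levels per length spanned a wide range among the members. Lamp1, a heavily glycosylated protein that lines the inner face of the lysosomal membrane, was the highest, with a mean of 788 TPM over the 6 libraries (range 770 to 832). Psap, the precursor of the saposins that present sphingolipids to their hydrolases, followed at 747 TPM (694 to 799), and the ranges of the pair overlapped. Both lay above Cd63, a tetraspanin of late endosomes and lysosomes (412 TPM, 390 to 433). The lowest member was Rragd, a Rag GTPase that recruits mTORC1 to lysosomes, at 0.355 TPM (0.271 to 0.435). Rragd also had the fewest counts among the members, 10 to 19 per library.

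The median level was 73.4 TPM for the V-ATPase genes, 64.3 TPM for the membrane proteins and 18.3 TPM for the regulators. Within V1, Atp6v1g1 had the highest level (201 TPM) and its paralog Atp6v1g2 the lowest (5.09 TPM). Among the hydrolases, Ctsz, a carboxypeptidase, was the highest (254 TPM), and its range of 242 to 270 TPM lay above the 193 to 225 of Ctsl, a cysteine protease. Ctsl, Ctsd (170 to 218) and Ctsb (166 to 200) had overlapping ranges. Gla, the α-galactosidase that acts on globotriaosylceramide, was the lowest hydrolase (12.4 TPM). Within V0 the highest entry was the processed pseudogene Atp6v0c-ps2 (314 TPM), above its parent Atp6v0c (86 TPM). These are near-identical copies and the handling of reads that match both is not given in the sources used here, so the values of both are uncertain.

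**Figure D1:**
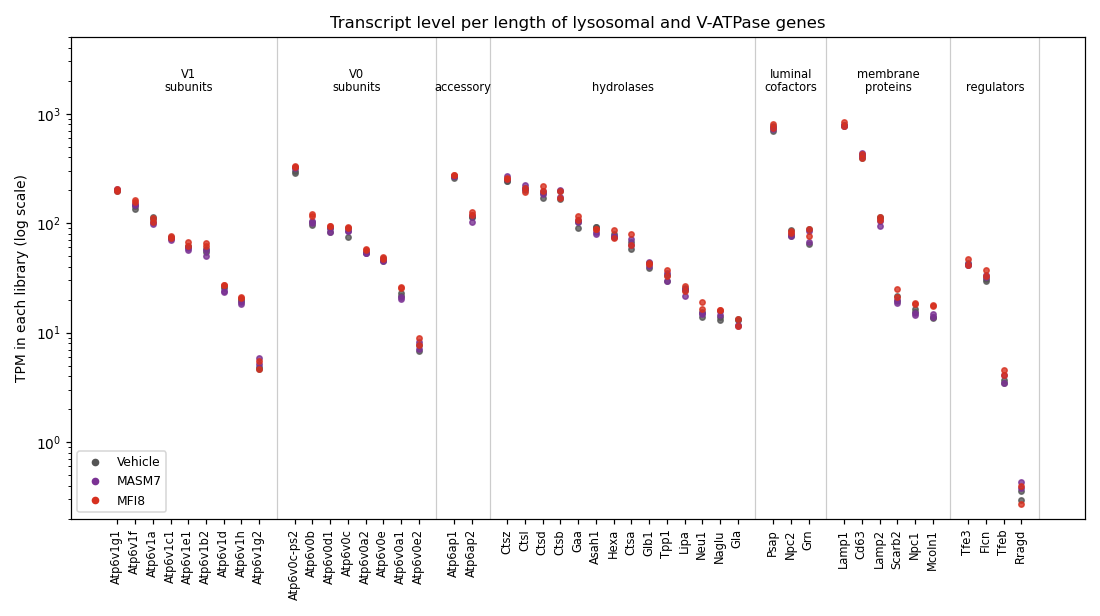
TPM of each of the 46 genes in each of the 6 libraries on a log axis, grouped by class and ordered by level within a class, with colours for vehicle, MASM7 and MFI8. The 6 points of a gene lie close together, while genes of one class spread from 5.09 TPM (Atp6v1g2) to 201 TPM (Atp6v1g1) in V1 and from 15.2 TPM (Mcoln1) to 788 TPM (Lamp1) in the membrane proteins.

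To test whether inhibition of mitochondrial fusion was accompanied by a shift in lysosomal transcripts, MFI8 was compared with vehicle. Of the 46 members, 37 were higher and 9 lower with MFI8 (80.4% higher, against 50.7% of all genes tested), and the median log2 fold change was 0.058, against 0.0027 over all genes tested. This median was 0.098 without vehicle replicate 1 and 0.041 without vehicle replicate 2. The differences were small, between -0.11 and 0.34 on the log2 scale. In the edgeR quasi-likelihood fit, with p adjusted by Benjamini-Hochberg over all genes tested, 0 members had an adjusted p under 0.05, as did 0% of all genes tested, and the smallest adjusted p among members was 0.248. At an unadjusted p under 0.05, 9 members were higher (19.6%, against 5.21% of all genes) and 0 were lower (against 4.65%). The 9 were Mcoln1, Npc1, Atp6v0b, Atp6v0a1, Atp6v1f, Gaa, Ctsd, Neu1 and Flcn. Both MFI8 libraries exceeded both vehicle libraries for 19 members (41.3%, against 20.9% of all genes), and both lay below for 3 (6.52%, against 19.3%). As the RNA came from whole cultures, fewer cells of a type and less RNA per cell cannot be told apart.

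When the replicate number was added to the model as a block, 4 members passed an adjusted p of 0.05 with MFI8, and all of them were higher (8.70%, against 2.79% of all genes). They were Mcoln1 (adjusted p = 0.0029), Atp6v0b (0.0106), Gaa (0.0154) and Ctsd (0.0275), by the same test. Gaa and Ctsd did not pass when the GC and length offsets were added to the block (adjusted p = 0.0604 and 0.0501). No lower member passed, against 2.25% of all genes. The number of members at an unadjusted p under 0.05 without the block depended on 1 vehicle library and was 3 without vehicle replicate 2 (6.52%, against 7.46% of all genes in either direction).

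All 8 V0 genes were higher with MFI8, with a median log2 fold change of 0.13, or 0.12 over the 7 without the pseudogene. Atp6v0b encodes a proteolipid of the proton-carrying c ring and lies on chromosome 4 (117884326 to 117887333, minus strand, GRCm38). Its CPM (counts scaled to library size, with no correction for length) was, for replicates 1 and 2 in that order here and below, 59.4 and 54.9 under vehicle, 61.0 and 58.7 under MASM7 and 66.2 and 69.4 under MFI8. Both MFI8 libraries lay above the other 4, and MASM7 overlapped vehicle. Against vehicle the log2 difference was 0.25 (standard error 0.065, edgeR adjusted p = 0.341). An exon of Atp6v0b overlaps by 243 bases the opposite-strand gene Gm12841, which had 12 to 24 counts, and the strand setting of the counting is not given in the sources used here.

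Atp6v0a1, one of the large V0 subunits that direct the pump to its membrane, had 43.1 and 40.0 CPM under vehicle, 38.0 and 39.6 under MASM7 and 47.3 and 46.0 under MFI8. The MFI8 libraries were the highest and the MASM7 libraries the lowest, with no overlap between groups. MFI8 differed from vehicle by 0.17 on the log2 scale (standard error 0.069, adjusted p = 0.463). Atp6v0e2, the V0 gene with the lowest level per length, had 5.17 and 4.53 CPM under vehicle, 4.83 and 5.59 under MASM7 and 5.05 and 5.93 under MFI8, and its groups overlapped. Atp6v0c-ps2 had 39.7 and 37.3 CPM under vehicle, 43.2 and 42.9 under MASM7 and 41.9 and 42.6 under MFI8, so that both treated groups lay above vehicle. The other V0 genes (Atp6v0a2, Atp6v0c, Atp6v0d1 and Atp6v0e) had log2 fold changes of 0.007 to 0.12 with MFI8.

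The V1 genes were less uniform, with 7 higher and 2 lower with MFI8 and a median of 0.053. Atp6v1f, a small subunit of the rotating stalk, had 43.6 and 40.1 CPM under vehicle, 45.9 and 45.0 under MASM7 and 47.9 and 46.0 under MFI8. All treated libraries exceeded both vehicle libraries, and MFI8 differed from vehicle by a log2 value of 0.16 (standard error 0.069, adjusted p = 0.47). Atp6v0b and Atp6v1f were among the genes of an expression panel that the study drew from these libraries, so their direction is not independent of that choice. Atp6v1b2, a non-catalytic subunit of the ATP-hydrolysing head, had 82.1 and 86.2 CPM under vehicle, 76.4 and 86.6 under MASM7 and 90.4 and 96.8 under MFI8. The MFI8 libraries lay above all others (log2 fold change against vehicle 0.15, standard error 0.072, adjusted p = 0.521).

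The V1 genes lower with MFI8 were Atp6v1a, the catalytic subunit, and Atp6v1g1, by -0.0064 on the log2 scale. Atp6v1a had 189 and 196 CPM under vehicle, 170 and 178 under MASM7 and 170 and 186 under MFI8. Every treated library lay below both vehicle libraries, and the log2 difference between MFI8 and vehicle was -0.11 (standard error 0.059, adjusted p = 0.565). Atp6v1g1, a subunit of the peripheral stalk, had 64.7 and 63.2 CPM under vehicle, 64.8 and 67.2 under MASM7 and 61.9 and 65.4 under MFI8. Atp6v1g2 had 3.33 and 3.42 CPM under vehicle, 3.69 and 4.17 under MASM7 and 3.22 and 3.82 under MFI8. For both the MFI8 and vehicle libraries overlapped. The other 4 V1 genes (Atp6v1c1, Atp6v1d, Atp6v1e1 and Atp6v1h) had log2 fold changes of 0.0069 to 0.054.

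The accessory subunits moved little. Atp6ap1, which is needed for assembly of the pump, had 230 and 221 CPM under vehicle, 234 and 236 under MASM7 and 229 and 233 under MFI8. Atp6ap2, also known as the prorenin receptor, had 86.1 and 84.9 CPM under vehicle, 88.6 and 76.6 under MASM7 and 92.1 and 86.6 under MFI8. Their log2 fold changes with MFI8 were 0.036 and 0.063 (standard errors 0.05 and 0.074).

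The hydrolases were divided, with 9 higher and 5 lower with MFI8 and a median log2 fold change of 0.049, which was 0.013 without vehicle replicate 2 and 0.13 without vehicle replicate 1. Those at an unadjusted p under 0.05 were Gaa, Ctsd and Neu1. Gaa, the acid α-glucosidase that degrades glycogen, had 138 and 122 CPM under vehicle, 145 and 142 under MASM7 and 155 and 143 under MFI8. Its MFI8 libraries lay above both vehicle libraries but overlapped MASM7 (log2 fold change against vehicle 0.19, standard error 0.07, adjusted p = 0.425). Ctsd, an aspartic protease, had 126 and 113 CPM under vehicle, 132 and 124 under MASM7 and 143 and 127 under MFI8. Its lower MFI8 library lay just above the higher vehicle library (log2 fold change 0.18, standard error 0.074, adjusted p = 0.471). Neu1, a sialidase, had 16.3 and 14.6 CPM under vehicle, 16.0 and 16.0 under MASM7 and 17.2 and 19.6 under MFI8. Both MFI8 libraries were above the rest (log2 fold change 0.26, standard error 0.10, adjusted p = 0.451).

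Of the other 11 hydrolases, 6 were higher and 5 lower. Asah1, the acid ceramidase, had 89.8 and 87.8 CPM under vehicle, 80.2 and 77.0 under MASM7 and 83.9 and 83.6 under MFI8, and no treated library reached the vehicle libraries. Ctsl had 387 and 363 CPM under vehicle, 416 and 382 under MASM7 and 375 and 348 under MFI8, and its MFI8 and vehicle libraries overlapped. Gla had 12.1 and 12.1 CPM under vehicle, 10.7 and 11.1 under MASM7 and 10.4 and 12.1 under MFI8, and 1 MFI8 library was level with vehicle at this rounding. Ctsz had 99.1 and 98.9 CPM under vehicle, 105 and 112 under MASM7 and 102 and 103 under MFI8, so that all treated libraries exceeded vehicle. The remaining hydrolases ranged from -0.023 (Ctsb, a cysteine protease) to 0.23 (Naglu, an N-acetylglucosaminidase of heparan sulfate breakdown) in log2 fold change with MFI8.

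The hydrolases also differed between replicate numbers in the same direction in each treatment. Replicate 1 exceeded replicate 2 in all 3 groups for 9 of the 14 hydrolases (64.3%) and 3 of the 3 luminal cofactors, compared with 19.4% of all genes tested. That share covers genes of every level. The replicate difference was shared between groups more strongly among the more highly expressed genes (Pearson's r 0.508 to 0.621, against 0.152 to 0.188 across all genes). The share among genes of similar level was not computed. Grn, the progranulin precursor, had 87.1 and 63.2 CPM under vehicle, 83.3 and 67.0 under MASM7 and 85.8 and 73.1 under MFI8. Psap had 600 and 536 CPM under vehicle, 598 and 570 under MASM7 and 609 and 561 under MFI8. In both genes the groups overlapped, and the gap between replicates was wider than that between treatment means. The 3 cofactors had log2 fold changes with MFI8 of 0.08 (Grn), 0.043 (Psap) and 0.0055 (Npc2, which hands cholesterol to Npc1). The summed fibroblast markers were also higher in replicate 1 in each group. They were at 5050 and 4070 TPM under vehicle, 5140 and 4570 under MASM7 and 4810 and 4100 under MFI8, and a link to the hydrolases was not tested. What the replicate numbers stand for is not given, and its part in the hydrolase values was not tested. By contrast, V1 genes followed the opposite order, replicate 2 above replicate 1, in 4 of 9, and V0 genes in 0 of 8, against 20.5% of all genes.

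**Figure D2:**
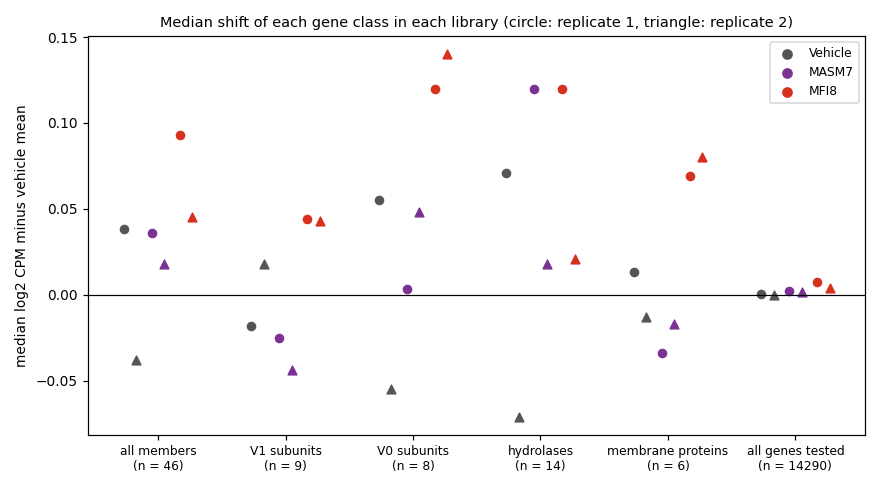
Median over each class of log2 CPM minus the vehicle mean, in each library, with circles for replicate 1, triangles for replicate 2 and colours for treatment. The V0 points with MFI8 (0.12 and 0.14) lie above those of vehicle (0.055 and -0.055), whereas the hydrolase points split by replicate number, with replicate 1 higher in each of the 3 groups.

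The 6 membrane proteins had a median log2 fold change of 0.081 with MFI8, and 5 were higher. Mcoln1 encodes TRPML1, a calcium-permeable cation channel of the lysosomal membrane, and lies on chromosome 8 (3500457 to 3515232, plus strand, GRCm38). It had 29.6 and 28.7 CPM under vehicle, 29.8 and 31.8 under MASM7 and 37.4 and 36.6 under MFI8. The MFI8 libraries were separated from all others, with a mean of 37.0 ± 0.605 CPM against 29.2 ± 0.606 with vehicle (SD, n = 2). The log2 fold change was 0.34 (standard error 0.073, edgeR adjusted p = 0.248), which was 26.8% above vehicle and the largest among the members. Npc1, the membrane protein that exports cholesterol from lysosomes, had 49.7 and 52.9 CPM under vehicle, 47.2 and 48.8 under MASM7 and 57.7 and 58.6 under MFI8. The 3 groups did not overlap and MFI8 was the highest (log2 fold change against vehicle 0.18, standard error 0.063, adjusted p = 0.413). An exon of Npc1 overlaps the opposite-strand gene Rmc1 by 319 bases, and Rmc1 had 966 to 1475 counts. In all, 15 members have exons that overlap another gene.

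Scarb2, also called LIMP-2, the receptor that carries glucocerebrosidase to lysosomes, had 35.0 and 38.2 CPM under vehicle, 33.2 and 35.6 under MASM7 and 37.1 and 43.6 under MFI8. Its MFI8 and vehicle libraries overlapped, whereas MFI8 lay above MASM7. Lamp2, which takes part in chaperone-mediated autophagy and lysosome fusion, had 311 and 301 CPM under vehicle, 285 and 259 under MASM7 and 303 and 284 under MFI8. Lamp1 had 592 and 588 CPM under vehicle, 606 and 591 under MASM7 and 619 and 576 under MFI8. For Lamp1, Lamp2 and Cd63 the MFI8 libraries overlapped vehicle, and their log2 fold changes were 0.018, -0.06 and 0.0041 (standard errors 0.052, 0.061 and 0.064). These 3, the most abundant of the membrane proteins, showed smaller differences with MFI8 than Mcoln1, Npc1 and Scarb2.

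**Figure D3:**
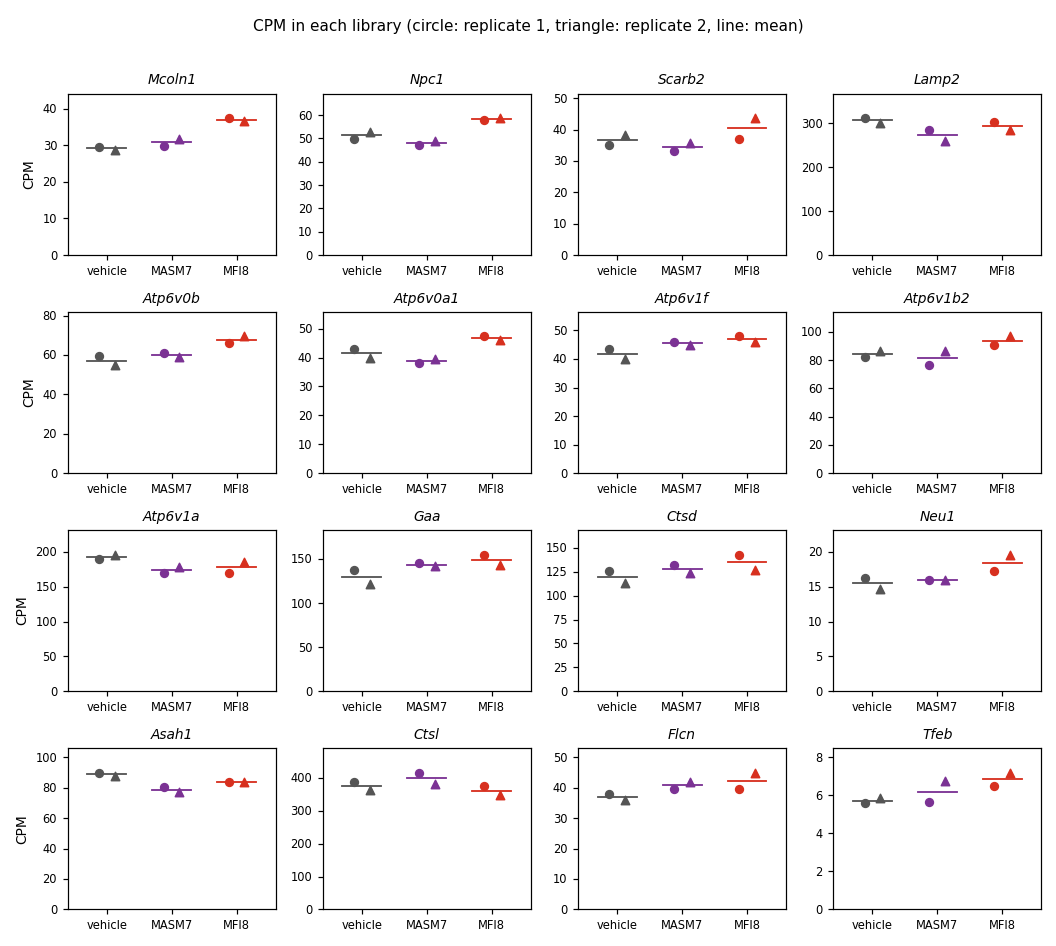
CPM of 16 genes in each library, on linear axes from 0, for vehicle, MASM7 and MFI8, with circles for replicate 1, triangles for replicate 2 and a line at the group mean. For Mcoln1 and Atp6v0b both MFI8 points lie above the other 4, while both Asah1 points are lowest with MASM7. Lamp2 has its lowest mean with MASM7, but its MASM7 and MFI8 points overlap.

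The regulators were mixed. Flcn, a GTPase-activating protein for RagC and RagD, had 38.0 and 35.8 CPM under vehicle, 39.6 and 41.8 under MASM7 and 39.4 and 44.9 under MFI8. All treated libraries exceeded vehicle, and the log2 difference between MFI8 and vehicle was 0.20 (standard error 0.082, adjusted p = 0.467). Tfeb had 5.57 and 5.88 CPM under vehicle, 5.65 and 6.74 under MASM7 and 6.49 and 7.19 under MFI8. Its MFI8 libraries lay above vehicle, and the difference did not pass the test (log2 fold change 0.26, standard error 0.15, adjusted p = 0.599). Tfe3 had 113 and 108 CPM under vehicle, 109 and 113 under MASM7 and 108 and 121 under MFI8, and the groups overlapped. Rragd had 0.438 and 0.517 CPM under vehicle, 0.642 and 0.559 under MASM7 and 0.566 and 0.389 under MFI8, at a depth where its standard error was 0.41. Transcript levels do not report the location of TFEB or TFE3, which was not measured here.

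The activator MASM7 was compared with vehicle in the same way, using the same vehicle libraries. Of the 46 members, 29 were higher and 17 lower, with a median log2 fold change of 0.043, against 0.00067 over all genes tested. No member passed an adjusted p of 0.05 with edgeR's quasi-likelihood test, as with 0% of all genes tested, and the smallest adjusted p was 0.473. At an unadjusted p under 0.05, 2 members were higher (4.35%, against 5.32% of all genes) and 3 lower (6.52%, against 4.88%), shares near those of all genes. Scaled by library size alone, 1 was higher and 3 lower, against 4.39% and 5.77% of all genes. Both MASM7 libraries exceeded both vehicle libraries for 12 members (26.1%, against 21.2%), and lay below them for 9 (19.6%, against 21.6%).

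The 3 lower members with MASM7 were Asah1 (log2 fold change -0.18, standard error 0.055, adjusted p = 0.473), Lamp2 (-0.17, 0.061, adjusted p = 0.473) and Atp6v1a (-0.15, 0.059, adjusted p = 0.477). With the replicate block, Asah1 and Lamp2 passed (edgeR adjusted p = 0.048 and 0.027), 4.35% of the members against 1.39% of all genes lower, while 0 members passed in the higher direction against 2.48% of all genes. When offsets for GC content and transcript length were added to the block, the log2 fold change was -0.11 for Asah1 and -0.06 for Lamp2. Their edgeR adjusted p became 0.213 and 0.397. The higher members at an unadjusted p under 0.05 were Ctsz (0.13, standard error 0.055, adjusted p = 0.484) and the pseudogene Atp6v0c-ps2 (0.16, standard error 0.066, adjusted p = 0.479).

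By class, the median log2 fold change with MASM7 was 0.0096 for the V-ATPase genes, 0.061 for the hydrolases and -0.034 for the membrane proteins. Within the pump, V1 had a median of -0.045 with 6 of 9 genes lower, and V0 one of 0.038 with 6 of 8 higher. These class values depended on the scaling. With the GC and length offsets, V1 was at -0.0025 with 5 of 9 lower, V0 turned to -0.0059 with 4 of 8 higher, and the hydrolase median fell to 0.019. The V-ATPase median was -0.0012 with library size alone and -0.0068 with limma on log2(TPM + 1). The sign of the hydrolase median depended on 1 library and was -0.022 without vehicle replicate 2. The same was true of the median over all members, which was -0.023 without that library, and of the V-ATPase median, which was -0.02.

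The compounds were then compared with each other. MFI8 exceeded MASM7 for 35 of the 46 members, with a median log2 fold change of 0.055, against -0.0015 over all genes tested. By edgeR's quasi-likelihood test 0 members passed an adjusted p of 0.05, as did 0% of all genes, and the smallest adjusted p was 0.336, for Npc1. At an unadjusted p under 0.05, 6 members were higher with MFI8 (13.0%, against 4.23% of all genes) and 1 was lower (2.17%, against 2.95%). The higher were Npc1 (log2 difference 0.28, standard error 0.063), Atp6v0a1 (0.27, 0.068), Mcoln1 (0.26, 0.072), Scarb2 (0.23, 0.091), Atp6v1b2 (0.20, 0.072) and Atp6v0b (0.18, 0.064). The lower was Ctsl (-0.14, standard error 0.062). Scaled by library size alone, 9 members were higher and 0 lower at this threshold, against 5.88% and 1.91% of all genes. The 6 genes encode 3 membrane proteins and 3 subunits of the pump. With library size alone, with the replicate block and with the GC and length offsets the hydrolase Neu1 was also higher at this threshold. The pump genes Atp6v1d and Atp6v1h joined with library size alone and with the block, and Atp6ap2 and Lamp2 with the block. With the offsets Scarb2 was no longer among the higher genes.

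With the replicate block, 5 of those genes passed for MFI8 against MASM7 (10.9% of the members, against 1.76% of all genes higher): Npc1 (edgeR adjusted p = 0.0042), Atp6v0a1 (0.014), Mcoln1 (0.0242), Atp6v1b2 (0.0255) and Scarb2 (0.0423). Atp6v0b did not pass with the block (0.0802), and no member passed as lower, against 1.31% of all genes. With the GC and length offsets added to the block, these 5 passed again and Atp6v0b joined them (edgeR adjusted p = 0.00961), making 6 higher (13.0%, against 1.88% of all genes). The cysteine protease Ctsl then passed as lower, at -0.15 on the log2 scale (adjusted p = 0.00376; 2.17% of the members, against 2.95% of all genes). The median difference was 0.17 for the membrane proteins, 0.07 for the V-ATPase genes and 0.05 for the hydrolases. The hydrolase value was 0.0041 without MASM7 replicate 2 and -0.01 without MFI8 replicate 1. For Lamp1, Psap and Cd63 the log2 differences were -0.0024, 0.0023 and -0.07, with standard errors of 0.052, 0.066 and 0.064, so differences of that size could not be told from 0.

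Base composition moved with these values. Across the 46 members, the Spearman correlation of transcript GC content with the log2 fold change was 0.60 for MFI8 and 0.71 for MASM7 against vehicle, compared with 0.30 and 0.45 across 13989 genes tested. The points share libraries and controls, and no p is attached. Median GC content was 56.3% for the regulators, 54.6% for the hydrolases and for the luminal cofactors, 49.7% for the V-ATPase genes, 49.6% for the membrane proteins and 50.4% for all genes. For MFI8 against MASM7 the correlation was -0.15 both in the members and in all genes. With offsets for GC content and length in each library, the members' median with MFI8 was 0.063, and 33 were higher. The hydrolase median then fell from 0.049 to 0.019, and the V0 median was 0.12 with 8 of 8 genes higher. At an unadjusted p under 0.05, 6 members were higher (13.0%, against 3.70% of all genes) and 0 lower (against 3.87%). The 6 held no hydrolase, a count near that share for 14 genes. Mcoln1 kept a log2 fold change of 0.30, Atp6v0b 0.22 and Npc1 0.18, compared with 0.11 for Gaa, 0.13 for Ctsd and 0.18 for Neu1. With MASM7 the same offsets gave a median of -0.00069, 23 members higher and 23 lower, and 0 at an unadjusted p under 0.05 in either direction, against 2.72% of all genes higher and 2.51% lower. With the offsets and the block together, 4 members passed as higher with MFI8 by edgeR's test (8.70%, against 1.99% of all genes) and 0 as lower (against 2.39%). They were Mcoln1 (adjusted p = 0.00552), Atp6v1b2 (0.0171), Atp6v0b (0.0193) and Npc1 (0.0393), without Ctsd and Gaa.

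Members with CACGTG in a promoter had a median log2 fold change of 0.11 with MFI8, compared with 0.058 for the 24 members whose promoters lacked it. With MASM7 the medians were 0.067 and 0.046, and for MFI8 against MASM7 the order was the other way, 0.046 and 0.072. For the longer TCACGTGA the medians with and without it were 0.11 and 0.058 with MFI8, 0.024 and 0.053 with MASM7, and 0.046 and 0.055 for MFI8 against MASM7. Carriers of the motif included genes in either direction, from Mcoln1 and Atp6v0b, which were higher with MFI8, to Atp6v1a and Gla, which were lower. 

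Other genes of the lysosomal pathway, taken from 4 lists, were tested in the same fit. Of 96 genes listed, 87 could be tested, and with MFI8 61 were higher and 26 lower, with a median log2 fold change of 0.074. At an unadjusted p under 0.05, 13 were higher (14.9%, against 5.21% of all genes) and 2 lower (2.30%, against 4.65%), and 0 passed after adjustment. The list of 21 other membrane proteins had the largest median, 0.15, with Clcn7, the chloride-proton exchanger of lysosomes, at 0.22 (standard error 0.055, adjusted p = 0.332) and Abca2, a lipid transporter, at 0.30 (0.076, adjusted p = 0.34). With the GC and length offsets the median was 0.096 for this list and 0.046 for all 87 genes. Among 31 other luminal proteins the median was 0.079, and 0.046 with those offsets, and Ppt2, a thioesterase, had a log2 fold change of 0.27 (standard error 0.10).

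Among 15 genes of pump assembly and enzyme sorting the median was 0.020 with MFI8. Igf2r, the mannose 6-phosphate receptor that delivers hydrolases, was higher (0.22, standard error 0.066, adjusted p = 0.369), and Vma21, an assembly chaperone of V0, was lower (-0.19, 0.062, adjusted p = 0.398). Among 20 genes of MiT factors, Rag GTPases and mTORC1 the median was 0.057, and Fnip1, the partner of folliculin, had 0.29 (standard error 0.087, adjusted p = 0.37) and Rptor, the mTORC1 scaffold, 0.14 (0.057, adjusted p = 0.449). With the block, 6 of the 87 passed as higher and 1 as lower (6.90% and 1.15%, against 2.79% and 2.25% of all genes), including Abca2 (edgeR adjusted p = 0.000815), Fnip1 (0.0125), Clcn7 (0.0131), Igf2r (0.0196) and, lower, Vma21 (0.0336).

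With MASM7 the same 87 genes had a median of 0.013, with 4 higher and 5 lower at an unadjusted p under 0.05, near the 5.32% and 4.88% of all genes. In the list of pump assembly and sorting, 4 of 15 genes were lower at this threshold (26.7%) and 0 higher. With the GC and length offsets, 3 of the 15 were lower at this threshold, against 2.51% of all genes in that fit. The smallest p in this list belonged to Dmxl1, a regulator of V-ATPase assembly (-0.21, standard error 0.056, adjusted p = 0.466), and Ncoa7, which binds the pump (-0.36, 0.11, adjusted p = 0.473). Mfsd8, a lysosomal transporter-like protein, was at -0.28 (standard error 0.11), Arsa, a sulfatase, at -0.20 (0.099), Clcn7 at 0.19 (0.055) and Hyal2, a hyaluronidase, at 0.25 (0.072). With the block, 2 of the 87 passed as higher, Hyal2 (edgeR adjusted p = 0.0205) and Clcn7 (0.0338), and 2 as lower, Ncoa7 (0.011) and Dmxl1 (0.0239), each 2.30%, against 2.48% and 1.39% of all genes. With the offsets in place of the block, Hyal2 and Dmxl1 were no longer at an unadjusted p under 0.05. In the mTORC1 list the smallest p belonged to Rptor (0.14, standard error 0.057) and Tsc2 (0.096, 0.052). Between the compounds, 12 of the 87 were higher with MFI8 and 2 lower at an unadjusted p under 0.05 (13.8% and 2.30%, against 4.23% and 2.95% of all genes). Ostm1, the partner of Clcn7, differed by 0.41 (standard error 0.092, adjusted p = 0.336) and Ctns, the cystine exporter, by 0.43 (0.12, adjusted p = 0.535). Fnip1 differed by 0.38 (0.086), Arsa by 0.32 (0.098), Dmxl1 by 0.20 (0.056), Gnptab, which tags hydrolases for sorting, by 0.19 (0.058) and Mitf by -0.42 (0.16). With the block, 6 of the 87 passed as higher (6.90%, against 1.76% of all genes), namely Fnip1 (edgeR adjusted p = 0.00121), Ostm1 (0.00339), Dmxl1 (0.0252), Ctns (0.0438), Ncoa7 and Igf2r, and Mitf passed as lower (0.0168; 1.15%, against 1.31%).

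The 8 genes with V-ATPase symbols under the count minimum were Atp6v0a4, Atp6v0c-ps1, Atp6v0d2, Atp6v1b1, Atp6v1c2, Atp6v1e2, Atp6v1fnb and Atp6v1g3. Of these, Atp6v0c-ps1 is a processed pseudogene, and Atp6v1fnb is a separate gene beside Atp6v1f that was matched by its symbol. Atp6v0d2, Atp6v1b1 and Atp6v1g3 had 0 counts in all 6 libraries. Atp6v0a4, an a subunit known from kidney, was just below the minimum with 5 to 13 counts, against 10 to 19 for Rragd just above it. In these MEFs the 8 genes thus had few or no counts. Subunit genes whose symbols do not follow the pattern given at the start were not examined, and no list assigned isoforms to tissues.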

How the data were processed

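RNA-seq of 6 WT MEF libraries was used, 2 per group. The authors converted reads with bcl2fastq, trimmed them with Trimmomatic, aligned them to mm10/GRCm38 with STAR and counted reads over exons with featureCounts. They deposited raw counts per gene, which were tested here, and TPM values, a level per transcript length, which were used for levels between genes. Normalized counts were also deposited and not used. The annotation release and strand setting are not given in the sources used here. No reads were reprocessed.

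Counts of all 6 libraries (22791792 to 30677751 per library) were fitted in edgeR 4.0.16 (R 4.3.3) with TMM factors of 0.991 to 1.01, filterByExpr and 1 coefficient per group. Each contrast used the quasi-likelihood F test, two-sided, with Benjamini-Hochberg adjustment over 14290 genes at 0.05. P-values measure the spread between these libraries, and an exact permutation of 2 against 2 libraries cannot give a p below 0.333. CPM was computed with TMM factors, and a prior count of 2 was added before logs of single libraries. Gene positions, GC content and lengths came from GENCODE vM21 and promoters from RefSeq on GRCm38.p6.

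The main fit did not pair libraries. In the replicate block, an alternative, the replicate numbers in the labels were treated as pairs. The reason was that the difference between replicates 2 and 1 correlated between all 3 pairs of groups (Pearson's r across genes 0.152 to 0.188, and 0.508 to 0.621 in the 7145 more highly expressed genes). The labels do not say what a number stands for. Alternatives were DESeq2 size factors, library size alone, other count filters, only the 2 groups compared, the replicate block, offsets for GC content and length (lowess, span 0.3), both together, the DESeq2 1.42.0 Wald test, limma 3.58.1 on log2(TPM + 1) and leaving out each library. The code was tested on simulated counts.

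The members and gene lists were chosen with earlier results of these data known. Values in every library are given for members with an unadjusted p under 0.05 in any contrast, the highest and lowest member of each class by TPM and the 4 regulators. Of the other lists, the 2 genes with the smallest p per list and contrast are named, apart from a result that is not reported here. The printed promoters and the genes under the count minimum were chosen after their values were seen.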

Additional observations from a re-analysis of the deposited data

How the results depend on the processing

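Adjusted calls among the members came from the fits with the replicate block and, for Mcoln1 with MFI8, from the fit with no filter on low counts, and the vehicle libraries set several medians. The 21 values of members at an unadjusted p under 0.05 kept their sign under every alternative run. Of 2205 member values under alternatives, 2030 stayed on the same side of the threshold and within the stated spread, 152 moved and 23 newly passed an adjusted p of 0.05. The cause of these changes was not tested. Depth limits the members with few counts most, such as Rragd with 10 to 19 per library and Tfeb with 127 to 222, whose standard errors with MFI8 were 0.41 and 0.15.

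For MFI8 against vehicle, members at an unadjusted p under 0.05 in either direction numbered 9 as reported (19.6%, against 9.86% of all genes), 17 with the replicate block (37.0%, against 18.6%), 14 with the block and the GC and length offsets (30.4%, against 17.2%), and 5 under the DESeq2 Wald test (10.9%, against 5.81%). With no filter on low counts Mcoln1 had an edgeR adjusted p of 0.023, and the share of all genes passing in that fit is not given here. Members past an adjusted p of 0.05, all higher, numbered 4 with the block (8.70%, against 2.79% of all genes higher). With the block and offsets they also numbered 4 (8.70%, against 1.99%). The membrane protein median was 0.10 with limma on log2(TPM + 1). Leaving out 1 library gave medians of 0.041 to 0.098 for all members and 0.062 to 0.082 for the V-ATPase genes. They were 0.013 to 0.13 for the hydrolases and 0.069 to 0.11 for the membrane proteins. The all-member median was lowest without vehicle replicate 2 and highest without vehicle replicate 1. The number of members at an unadjusted p under 0.05 also moved, as did the share of all genes.

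For MASM7 against vehicle, the median of all members was -0.00069 with the offsets and -0.00065 with offsets and block, and the membrane protein median was -0.015 with no filter and -0.048 with limma. Members at an unadjusted p under 0.05 numbered 5 as reported (10.9%, against 10.2% of all genes), 3 with only the compared groups (6.52%, against 9.15%), 10 with the block (21.7%, against 19.9%), 0 with the offsets (against 5.23%) and 3 with DESeq2 (6.52%, against 5.39%), and 2 passed adjustment with the block. Leaving out 1 library gave medians of -0.023 to 0.093 for all members and -0.02 to 0.038 for the V-ATPase genes. They were -0.022 to 0.14 for the hydrolases and -0.058 to -0.0063 for the membrane proteins. Counts at an unadjusted p under 0.05 moved as well, in the members and in all genes.

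For MFI8 against MASM7, limma gave medians of 0.098 for all members, 0.11 for the V-ATPase genes and 0.20 for the membrane proteins. The membrane protein median was 0.19 with library size alone and 0.13 with the offsets, with or without the block. Members at an unadjusted p under 0.05 numbered 7 as reported (15.2%, against 7.18% of all genes), 12 with the block (26.1%, against 15.6%), 18 with block and offsets (39.1%, against 18.2%) and 11 with limma (24.4%, against 7.72%), and 5 (all higher) and 7 (6 higher, and Ctsl lower) passed adjustment with the block and with block and offsets. Leaving out 1 library gave 0.13 to 0.18 for the membrane proteins, -0.01 (without MFI8 replicate 1) to 0.10 for the hydrolases and 3 to 8 members at an unadjusted p under 0.05, the lowest without MFI8 replicate 2. Where a compared group was left with 1 library, that library was assumed to vary like those of the other groups.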
